A study of Mus musculus with 12 samples.

Results

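The serpins are a large family of proteins that share one fold. Most of them trap a target protease: the protease cuts an exposed loop of the serpin and is then held in a dead complex. Some members have lost this activity and act as hormone carriers, chaperones or signalling proteins. In mouse the family is grouped into clades by letter, and many genes of clades A and B lie in tandem clusters of recent copies. Clade A, C, D, F and G proteins are mostly secreted into plasma or the extracellular space, whereas clade B proteins act mainly inside cells.

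All genes whose symbol begins with Serpin and that were named alone by at least 1 probe set on a mouse expression array were taken as members. This gave 40 genes, measured by 56 probe sets, out of 18193 genes so named on the array. The RefSeq table used for names (assembly GRCm38.p6) holds 69 Serpin genes and pseudogenes, and the 29 without such a probe set were not analysed here. Of the 40 members, 14 belong to clade A, 18 to clade B and 2 each to clades F and I, with 1 each in clades C, D, G and H.

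RNA came from mouse kidney and was hybridised to 12 arrays in 6 groups of 2. Kidney cortex and kidney medulla were each sampled as tissue, as progenitor cells isolated from that region and grown on fibroblast feeder cells, and as progenitor cell organoids made in 3D Matrigel. All groups are without a stated genetic change, and the labels give no strain, sex or age. The labels call the replicates biological, but they do not say whether equal numbers share an animal or a culture. They also do not say how feeder cells were removed before lysis. Where nothing more is known of the replicates, a p-value measures only the spread between these samples, and 2 arrays a group limit the precision.

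Levels are given as the log2 signals that the authors deposited, in which array medians ranged from 5.85 to 6.53. Differences are on the scale of log2(signal + 15.1 units), which shrinks changes of dim genes. A stage difference is the mean of the cortex and the medulla difference, with 4 arrays on each side, and a region difference is the medulla mean minus the cortex mean within a stage, 2 arrays against 2. Each carries the standard error (SE) of a limma model fitted to all arrays. A gene was tested where its brightest probe set exceeded the median of both arrays in 1 group or more. It is said to have risen or fallen where limma's Benjamini-Hochberg adjusted p over 13037 genes was under 0.05. Where a stage has 4 values in a row, they stand for cortex replicates 1 and 2 and then medulla replicates 1 and 2.

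The organoid arrays stood apart from the others in their added controls. The median log2 signal of 24 poly-A spike probe sets was 7.96 to 8.83 on tissue, 7.03 to 7.37 on progenitor and 1.21 to 1.88 on organoid arrays, and the log2 excess of the 3′ over the 5′ Gapdh probe set was 0.867 to 1.67 on organoid arrays against at most 0.183 elsewhere. The organoid stage and these array properties cannot be told apart. Tissue markers followed the stage labels: the mean of 6 proximal tubule markers was 13.9 to 14.5 in tissue and 3.69 to 6.38 in the cultures. They set the tissue regions apart little. The proximal tubule mean was 14.47 to 14.54 in cortex and 13.94 to 14.42 in medulla tissue. The podocyte mean (3 of 4 measured) was 9.68 to 9.94 and 8.79 to 9.50, and the collecting duct mean (3 of 3) 11.67 to 11.73 and 11.78 to 12.36. The endothelial mean (7 of 7 markers measured) was 9.49 to 10.02 in tissue and at most 5.59 in the cultures, and the leukocyte mean (7 of 7) was 8.24 to 9.01 in tissue and at most 6.88 in the cultures. In bulk RNA, fewer cells of a type and less RNA per cell cannot be told apart.

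Serpin genes changed between the stages in both directions, by up to 8.44 log2 units. Of the 40 members, 24 passed the brightness filter and were tested. From tissue to progenitor cells, 10 of the 24 rose and 8 fell, while 6 did not pass the threshold. Among all genes tested, 36.8% rose and 35.9% fell, against 41.7% and 33.3% of the tested members. The median difference of the members was 0.33, beside 0.03 over all genes. From progenitor cells to organoids 7 rose and 12 fell, which is 29.2% and 50% of the tested members, where 28.1% of all genes rose and 44.3% fell. The members' median there was −0.39, beside −0.29 over all genes. Between organoids and tissue 11 members were higher and 9 lower in organoids, or 45.8% and 37.5%, where 33.0% of all genes were higher and 46.6% lower. Here the median was 0.36 among members and −0.29 over all genes. The members' shares in the first 2 comparisons lay near the background, so these counts are no result about the family. The last split depended on the scaling, since quantile normalization gave 9 higher and 10 lower and scaling to a common 75th percentile gave 8 and 10. That last scaling moved the median over all genes from −0.29 to −0.51 for organoids against tissue and from −0.29 to −0.40 for organoids against progenitor cells. These comparisons share arrays (each stage enters 2 of them), so their counts are not independent of each other.

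**Figure D1:**
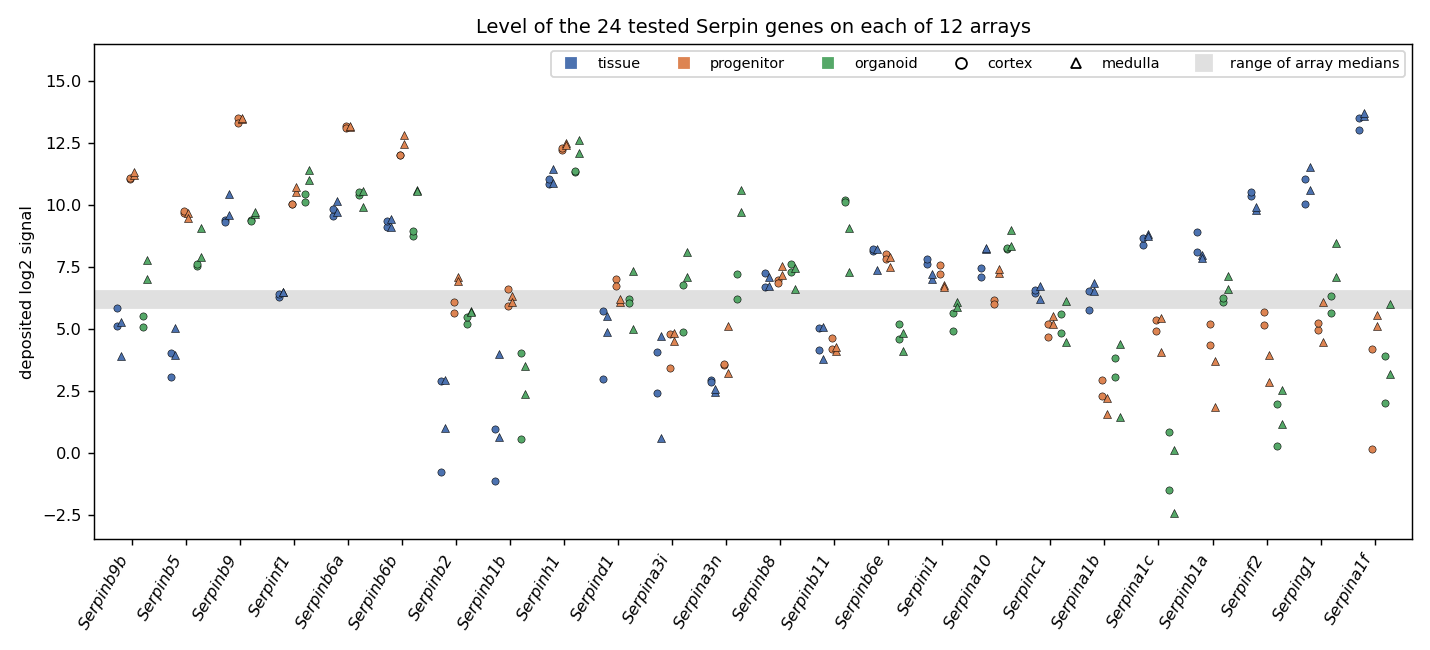
Deposited log2 signal (vertical axis) of the 24 tested Serpin genes on each of the 12 arrays, ordered from the largest rise to the largest fall between tissue and progenitor cells. Colours mark the stage and shapes the region, and the grey band is the range of array medians, 5.85 to 6.53. Serpina1f stands between 13.02 and 13.71 in tissue and at most at 6.02 on the culture arrays, while Serpinb9 stands between 13.32 and 13.52 on progenitor arrays and at most at 10.45 elsewhere.

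Several secreted inhibitors of the plasma type fell from tissue to culture. Serpina1f, Serpina1b, Serpina1c and Serpinf2 passed the brightness filter only through tissue groups, so their falls are partly set by the filter. The largest change of the family was that of Serpina1f, a paralog of the elastase inhibitor alpha-1-antitrypsin. Serpina1f (probe set 1453085_at) had log2 signals of 13.02, 13.52, 13.61 and 13.71 in tissue, of 0.16, 4.20, 5.10 and 5.55 on progenitor arrays and of 3.89, 2.02, 6.02 and 3.19 in organoids. Every tissue array lay far above every culture array, and the cultures overlapped with each other. The gene fell by 8.30 (SE 0.36, limma adjusted p = 8.93e-10), or 315-fold on the offset scale, and its organoid level did not pass against progenitor cells (−0.14, SE 0.36, adjusted p = 0.730). The culture signals lay near or below the array medians, so the fold depends on the offset: the fitted difference was −6.94 with an offset of the median signal and −9.45 with an offset of 1 signal unit.

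Copies of alpha-1-antitrypsin itself went the same way. Serpina1c (1448680_at) read 8.40, 8.66, 8.84 and 8.75 in tissue, 5.36, 4.91, 4.07 and 5.43 on progenitor arrays and −1.51, 0.82, 0.12 and −2.42 in organoids. The stages did not overlap, and Serpina1c fell at both steps, by 3.17 (SE 0.25, adjusted p = 1.82e-07 in limma) and then by 1.55 (SE 0.25, adjusted p = 1.19e-04). Serpina1b (1451513_x_at) read 5.75, 6.55, 6.54 and 6.85 in tissue, 2.95, 2.31, 1.55 and 2.20 on progenitor arrays and 3.83, 3.05, 4.39 and 1.46 in organoids. All culture arrays lay below all tissue arrays, with a fall of 2.33 (SE 0.28, adjusted p = 1.15e-05 in limma) and no further change past the threshold (0.36, adjusted p = 0.272). The name of that probe set marks it as one that can also bind related transcripts, and the Serpina1 genes are near-identical, so which copy gave this signal is uncertain.

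Serpinf2 and Serping1 are the plasma inhibitors of plasmin (alpha-2-antiplasmin) and of the first complement and contact proteases (C1 inhibitor). Serpinf2 (1417498_at) read 10.37, 10.53, 9.79 and 9.91 in tissue, 5.17, 5.67, 2.84 and 3.94 on progenitor arrays and 1.98, 0.27, 1.16 and 2.54 in organoids. The stages again did not overlap, and it fell by 4.89 (SE 0.22, limma adjusted p = 1.18e-09) and then by 1.08 (SE 0.22, adjusted p = 7.37e-04). Serping1 (1416625_at) read 10.05, 11.05, 11.55 and 10.60 in tissue, 4.96, 5.25, 4.46 and 6.07 on progenitor arrays and 5.66, 6.32, 7.08 and 8.48 in organoids. Tissue was above all cultures, and the organoid arrays overlapped the progenitor range at their lower end. Serping1 fell by 5.11 (SE 0.37, adjusted p = 9.26e-08 in limma) and rose again by 1.38 in organoids (SE 0.37, adjusted p = 0.00493), which left it 3.73 below tissue (adjusted p = 1.41e-06). The endothelial and leukocyte marker means given above were also lower in the cultures, with Pecam1, Cdh5, Emcn, Plvap and Tek below the array median on all culture arrays, and their part in these falls was not tested.

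Smaller shifts were seen in the inhibitors of coagulation. Serpinc1, which encodes antithrombin, ranged from 6.22 to 6.72 in tissue and from 4.48 to 6.14 on the culture arrays. Serpinc1 too passed the brightness filter only through tissue groups. It fell by 1.05 from tissue to progenitor cells (SE 0.29, limma adjusted p = 0.00625) and did not pass from there to organoids. Serpina10, the inhibitor of factor Xa that works with protein Z, fell by 0.94 (SE 0.19, adjusted p = 7.42e-04 in limma) and rose by 1.59 in organoids (adjusted p = 1.18e-05), to 0.64 above tissue (adjusted p = 0.00828). That last call was lost under quantile normalization (0.42, adjusted p = 0.0724) and under scaling to the 75th percentile (0.42, adjusted p = 0.0720). Serpind1, heparin cofactor II, was higher in progenitor cells than in tissue by 1.23 (SE 0.42, adjusted p = 0.0189 in limma), a call that ended when cortex tissue replicate 1 (0.85), medulla tissue replicate 2 (1.12), cortex progenitor replicate 1 (1.18) or medulla progenitor replicate 2 (1.21) was left out. Its difference between organoids and tissue, 0.96, had an adjusted p of 0.0513 in limma and passed without cortex tissue replicate 2 (1.35) or without medulla organoid replicate 2 (1.44). Serpini1, neuroserpin, an inhibitor of tissue plasminogen activator, stayed between 6.68 and 7.80 in tissue and progenitor cells and fell by 1.19 in organoids (SE 0.21, adjusted p = 2.56e-04 in limma). A second Serpini1 probe set gave −0.29 for that step, which did not pass, but fell between tissue and progenitor cells by 0.89 (adjusted p = 0.0468 in a limma fit of all probe sets).

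Both tested genes of the Serpina3 group, which in mouse takes the place of the single human antichymotrypsin gene, were highest in organoids. They passed the brightness filter only through organoid groups, so their place there is partly set by the filter. Serpina3a, too dim to be tested, went the other way. It read 1.58 to 3.52 in organoids and 4.35 to 6.07 on the other arrays, all below the array medians. Serpina3n, an inhibitor of leukocyte proteases that is known as an acute-phase gene, read 2.95, 2.84, 2.44 and 2.56 in tissue and 3.54, 3.57, 5.10 and 3.21 on progenitor arrays (1419100_at). In organoids it read 6.22, 7.20, 9.70 and 10.59, above every other array and highest in medulla organoids. The rise from progenitor cells was 3.60 (SE 0.31, limma adjusted p = 6.11e-07), or 12.2-fold, while tissue and progenitor cells did not differ past the threshold (0.49, adjusted p = 0.167). With the progenitor signals below the array medians, the rise was 2.43 with an offset of the median signal and 4.47 with an offset of 1 signal unit. Serpina3i (1430751_at) read 4.05, 2.40, 0.58 and 4.71 in tissue, 4.78, 3.44, 4.52 and 4.82 on progenitor arrays and 6.76, 4.89, 7.08 and 8.09 in organoids. The organoid arrays were all above the others, by a narrow margin for cortex organoid replicate 2. Serpina3i rose by 1.76 from progenitor cells (SE 0.41, adjusted p = 0.00194 in limma) and 3 of its 4 organoid signals were above the array medians.

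Clade B serpins, which guard cells against their own or foreign proteases, were tested in 11 of 18 members, since the other 7 were too dim. Of the 11, 7 rose and 1 fell from tissue to progenitor cells, where 36.8% of all genes rose and 35.9% fell. From there to organoids 2 rose and 8 fell, where 28.1% of all genes rose and 44.3% fell. Serpinb1b and Serpinb2, which rose and then fell, passed the brightness filter only through progenitor groups. The simple epithelium marker mean (4 of 4 measured, none below the array median) moved the same way, with 11.3 to 12.4 in tissue, 14.1 to 14.3 in progenitor cells and 12.7 to 12.9 in organoids, and its part in these changes was not tested. Serpinb9 encodes an inhibitor of granzyme B, the killing protease of cytotoxic lymphocytes, and read 9.39, 9.33, 10.45 and 9.58 in tissue (1422601_at). Its signal was 13.51, 13.32, 13.47 and 13.52 on progenitor arrays and 9.41, 9.36, 9.65 and 9.70 in organoids. The progenitor arrays lay far above the rest, and tissue and organoids overlapped. It rose by 3.74 (SE 0.15, limma adjusted p = 5.22e-10), or 13.4-fold, and fell by 3.90 in organoids (adjusted p = 1.33e-09). Organoids and tissue differed by −0.16 (adjusted p = 0.353 in limma), which became −0.37 (adjusted p = 0.00358) without medulla tissue replicate 2, which left medulla tissue replicate 1, the highest tissue array, alone in its group, and passed under quantile normalization (−0.37, adjusted p = 0.0301), 75th percentile scaling (−0.39, adjusted p = 0.0250) and the mean of all probe sets (−0.55, adjusted p = 0.0127).

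Its paralog Serpinb9b showed the largest rise of the family between tissue and progenitor cells. Serpinb9b (1422668_at) read 5.83, 5.11, 3.92 and 5.28 in tissue, 11.04, 11.07, 11.20 and 11.32 on progenitor arrays and 5.07, 5.51, 7.80 and 7.02 in organoids. Progenitor arrays were above all others, and the cortex organoid arrays were inside the tissue range while the medulla organoid arrays were above it. The rise was 5.55 (SE 0.24, adjusted p = 1.0e-09 in limma), or 46.8-fold, and the fall in organoids 4.52 (adjusted p = 1.26e-08). The tissue signals lay below the array medians, so the fold depends on the offset, and the rise was 4.49 with an offset of the median signal and 6.08 with an offset of 1 signal unit. The leukocyte marker mean was 8.24 to 9.01 in tissue and 5.56 to 6.14 in progenitor cells, and its part in the Serpinb9 and Serpinb9b values was not tested.

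The Serpinb6 genes, relatives of the human inhibitor of cathepsin G, followed the same course in part. Serpinb6a (1450138_a_at) read 9.56, 9.82, 10.18 and 9.72 in tissue, 13.19, 13.12, 13.14 and 13.19 on progenitor arrays and 10.41, 10.52, 10.58 and 9.92 in organoids. It stood highest in progenitor cells, with organoids and tissue partly overlapping, and it rose by 3.32 (SE 0.14, limma adjusted p = 9.64e-10) and fell by 2.79 (adjusted p = 9.63e-09). Serpinb6b (1422804_at) read 9.12, 9.35, 9.11 and 9.44 in tissue, 12.03, 12.03, 12.81 and 12.46 on progenitor arrays and 8.74, 8.93, 10.61 and 10.56 in organoids. Medulla organoids lay above tissue and cortex organoids below it, and the stage changes were a rise of 3.04 (SE 0.12, adjusted p = 3.30e-10 in limma) and a fall of 2.59 (adjusted p = 3.52e-09). The small excess of organoids over tissue was 0.53 for Serpinb6a and 0.45 for Serpinb6b (adjusted p = 0.00489 and 0.00351). Both calls ended under 75th percentile scaling (0.29 and 0.22), and that of Serpinb6b also under quantile normalization (0.26). Serpinb6e (1441918_x_at) differed from its relatives: it read 8.15, 8.24, 7.37 and 8.21 in tissue and 8.01, 7.83, 7.92 and 7.49 on progenitor arrays, which overlapped, and 4.59, 5.19, 4.10 and 4.81 in organoids. Its fall in organoids was 2.55 (SE 0.24, adjusted p = 1.30e-06 in limma). The Serpinb6 and Serpinb9 copies are close enough in sequence that some of their probe sets may share signal.

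The mouse counterparts of SERPINB1, an inhibitor of neutrophil proteases, moved in opposite directions. Serpinb1a (1416318_at) read 8.10, 8.91, 7.98 and 7.85 in tissue, 5.19, 4.35, 1.84 and 3.70 on progenitor arrays and 6.08, 6.24, 6.63 and 7.13 in organoids. The stages did not overlap, with tissue highest and progenitor cells lowest. Serpinb1a fell by 3.31 (SE 0.26, adjusted p = 2.00e-07 in limma) and rose by 1.78 in organoids (adjusted p = 5.94e-05). Its second probe set gave −2.71 and 2.36 for these steps and −0.35 between organoids and tissue, which did not pass, where the brighter one gave −1.54 (adjusted p = 1.57e-04). Serpinb1b (1426318_at) read 0.95, −1.15, 0.63 and 3.97 in tissue, 5.92, 6.59, 6.33 and 6.08 on progenitor arrays and 4.03, 0.55, 3.48 and 2.36 in organoids. It was near the array median in progenitor cells and below it elsewhere, with a rise of 2.23 (SE 0.30, limma adjusted p = 2.85e-05) and a fall of 1.98 (adjusted p = 8.73e-05). Serpinb1b passed the brightness filter only through progenitor groups, so its place there is partly set by the filter.

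The other clade B genes that changed lie on chromosome 1. Serpinb5 encodes maspin, a clade B protein of epithelia that does not inhibit proteases in the usual way, Serpinb2 encodes plasminogen activator inhibitor 2, which inhibits urokinase, and Serpinb11 lies between them. Since 6 of the 7 members of the Serpinb cluster on chromosome 1 share a motif in the promoter, the promoters of these 3 are printed here, from 250 bases before to 50 after the start in RefSeq (GRCm38.p6, all on the + strand): Serpinb5 at chr1:106860925-106861224, Serpinb11 at chr1:107362064-107362363 and Serpinb2 at chr1:107511173-107511472, the first of its start sites in the table. Capitals mark matches to TGANTCA, a loose form of the AP-1 motif that leaves the middle base open. None of the matches marked here is the canonical form TGACTCA or its reverse complement TGAGTCA.
Serpinb5: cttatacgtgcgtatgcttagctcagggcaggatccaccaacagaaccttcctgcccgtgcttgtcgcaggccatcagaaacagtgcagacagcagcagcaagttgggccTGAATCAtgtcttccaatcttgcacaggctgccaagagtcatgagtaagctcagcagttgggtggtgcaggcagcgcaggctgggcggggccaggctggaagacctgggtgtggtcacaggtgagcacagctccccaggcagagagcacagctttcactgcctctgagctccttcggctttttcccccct
Serpinb11: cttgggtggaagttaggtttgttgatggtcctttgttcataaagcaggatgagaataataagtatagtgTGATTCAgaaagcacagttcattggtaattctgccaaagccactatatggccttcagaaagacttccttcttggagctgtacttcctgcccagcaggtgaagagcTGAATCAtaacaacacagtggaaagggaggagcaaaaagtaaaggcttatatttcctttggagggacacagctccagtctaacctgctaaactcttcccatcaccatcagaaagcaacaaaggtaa
Serpinb2: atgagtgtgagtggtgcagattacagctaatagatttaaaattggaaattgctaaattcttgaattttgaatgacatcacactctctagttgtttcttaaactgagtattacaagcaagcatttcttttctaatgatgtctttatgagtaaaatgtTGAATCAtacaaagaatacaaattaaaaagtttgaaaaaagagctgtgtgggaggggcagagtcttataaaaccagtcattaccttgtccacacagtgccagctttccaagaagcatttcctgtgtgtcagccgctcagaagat
Searched on both strands, this motif was found in 7.81% of 32851 mouse promoters of the same length. It was found in 8 of the 34 members with a promoter in the table: Serpinb5, Serpinb12, Serpinb11, Serpinb7, Serpinb2 and Serpinb8 on chromosome 1, and Serpina1b and Serpina1c on chromosome 12. Over all Serpin genes of the chromosome 1 cluster with a promoter, members or not, 7 of 11 held it. The canonical form was held by 2 of the 7 members there. None of the 10 members of the chromosome 13 cluster with a promoter held TGANTCA. The canonical form TGACTCA, which is contained in TGANTCA and was found in 5.2% of promoters, occurred in Serpinb7, Serpinb8, Serpina1b and Serpina1c. A match is a run of letters and not a measured binding site.

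Serpinb5 (1421752_a_at) read 3.07, 4.02, 3.96 and 5.02 in tissue, 9.67, 9.77, 9.67 and 9.48 on progenitor arrays and 7.56, 7.61, 9.08 and 7.91 in organoids. The stages did not overlap, and the gene rose by 4.66 (SE 0.26, limma adjusted p = 8.37e-09), or 25.3-fold, then fell by 1.55 (adjusted p = 1.79e-04). All tissue signals lay below the array medians, so this fold too depends on the offset: the rise was 3.32 with an offset of the median signal and 5.53 with an offset of 1 signal unit. Serpinb2 (1419082_at) read 2.88, −0.78, 2.95 and 0.996 in tissue, 6.10, 5.64, 7.11 and 6.94 on progenitor arrays and 5.21, 5.47, 5.72 and 5.66 in organoids. All cultures were above tissue, and the highest organoid array just exceeded the lowest progenitor array. The rise was 2.42 (SE 0.24, adjusted p = 1.58e-06 in limma). Serpinb2 passed the brightness filter only through progenitor arrays, so its place there is partly set by the filter. The fall in organoids, 0.76 (adjusted p = 0.0121), did not pass without cortex progenitor replicate 1 (−0.67, adjusted p = 0.0504) or with an offset of 1 signal unit (−0.92, adjusted p = 0.174). Serpinb11 (1449451_at) read 4.16, 5.03, 3.79 and 5.07 in tissue and 4.20, 4.64, 4.10 and 4.27 on progenitor arrays, all below the array medians. In organoids it read 10.20, 10.13, 9.08 and 7.28, above every other array. Serpinb11 passed the brightness filter only through organoid groups, so its place there is partly set by the filter. It rose by 4.10 from progenitor cells (SE 0.34, limma adjusted p = 5.33e-07), or 17.1-fold, and by 2.91 to 4.80 with these other offsets. Serpinb8, an inhibitor of furin, ranged from 6.62 to 7.62 over all arrays and passed in no stage comparison, whereas its second probe set was lower in progenitor cells than in tissue by 1.55 (adjusted p = 0.00178 in a limma fit of all probe sets).

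**Figure D2:**
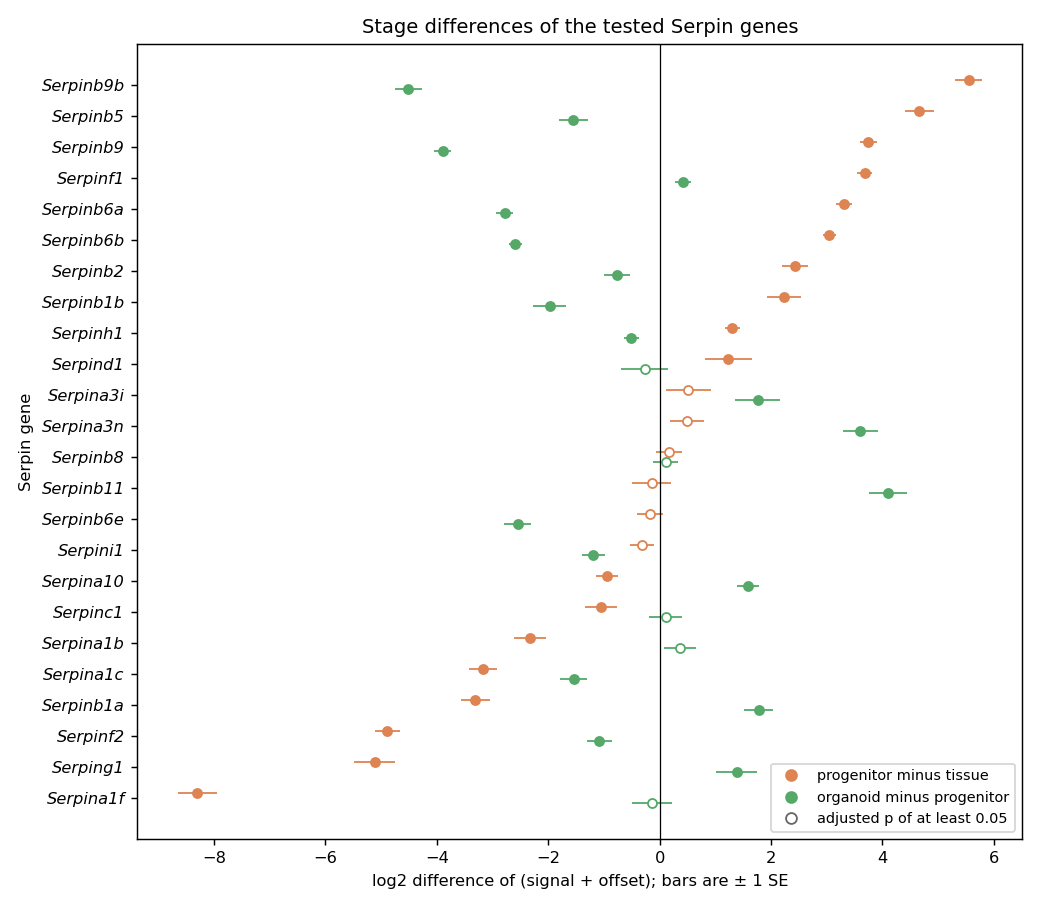
Stage differences of the 24 tested Serpin genes in log2 units (horizontal axis), with bars of 1 SE. Orange points are progenitor cells minus tissue, green points organoids minus progenitor cells, and open points have an adjusted p of at least 0.05. Both sets of points share the progenitor arrays, so a high progenitor level moves them in opposite directions. Serpinb9b stands at 5.55 and −4.52, and Serpinf1 is positive in both.

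On chromosome 13, 4 of the 5 Serpinb genes that rose and then fell are neighbours. In the RefSeq order of 17 Serpinb genes and pseudogenes there, 11 are members and 7 were tested. Serpinb6b, Serpinb9, Serpinb9b and Serpinb1b hold positions 4 to 7, and each rose in progenitor cells and fell in organoids. Serpinb6a, at position 17, did the same, whereas Serpinb1a, at position 1, fell and then rose. In all, 5 of the 7 rose and 1 fell at the first step (36.8% and 35.9% of all genes), and 1 rose and 6 fell at the second (28.1% and 44.3% of all genes). The chromosome 1 cluster of 12 genes has 4 tested members of 7, of which 2 rose at the first step, then 1 rose and 2 fell. The Serpina cluster on chromosome 12 holds 28 genes with 13 members and 6 tested: 4 fell at the first step, where Serpina3i (0.51) and Serpina3n (0.49) did not pass, then 3 rose and 1 fell. Set against the same shares of all genes, these counts over few genes are a description and no test of a cluster. Serpinb1b, Serpinb2, Serpinb11, Serpina1b, Serpina1c, Serpina1f, Serpina3i and Serpina3n passed the brightness filter only through groups of the stage where they were high. The next sequences show the promoters of Serpinb9 at chr13:33004291-33004590 and of Serpinb9b at chr13:33027164-33027463, both on the + strand of GRCm38.p6, because both neighbouring copies rose and then fell. Capitals mark a match to the interferon-stimulated response element, GAAA and GAAA with 2 bases between them, here in its reverse complement.
Serpinb9: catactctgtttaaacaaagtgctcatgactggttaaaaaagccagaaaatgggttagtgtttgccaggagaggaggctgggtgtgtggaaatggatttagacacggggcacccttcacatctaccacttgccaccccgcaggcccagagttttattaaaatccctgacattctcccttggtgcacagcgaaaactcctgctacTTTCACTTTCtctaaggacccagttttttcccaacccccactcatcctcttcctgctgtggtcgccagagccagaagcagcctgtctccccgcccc
Serpinb9b: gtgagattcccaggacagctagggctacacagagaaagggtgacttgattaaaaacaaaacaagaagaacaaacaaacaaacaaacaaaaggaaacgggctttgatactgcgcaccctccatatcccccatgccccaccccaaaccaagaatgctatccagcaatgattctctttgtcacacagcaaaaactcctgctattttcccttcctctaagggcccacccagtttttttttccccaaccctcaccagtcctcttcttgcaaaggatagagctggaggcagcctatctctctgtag
The Serpinb9 promoter holds this motif and the Serpinb9b promoter holds none of the motifs searched. The motif was found in 3.44% of all promoters and in 3 of the 34 members (Serpinb9, Serpinb6a and Serpina3a). The STAT motif TTCCNGGAA was found in Serpinb6a and Serpina11 (1.15% of promoters), and the TEAD motif GGAATG in 8 of the 34 (14.7%). The NF-kB motif, GGGA and TTCC with 2 bases between them (1.47% of promoters), and an HNF1 motif, GTTAAT and ATTAAC with 1 base between them (0.00913%), had no match among the 34. All were searched on both strands.

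**Figure D3:**
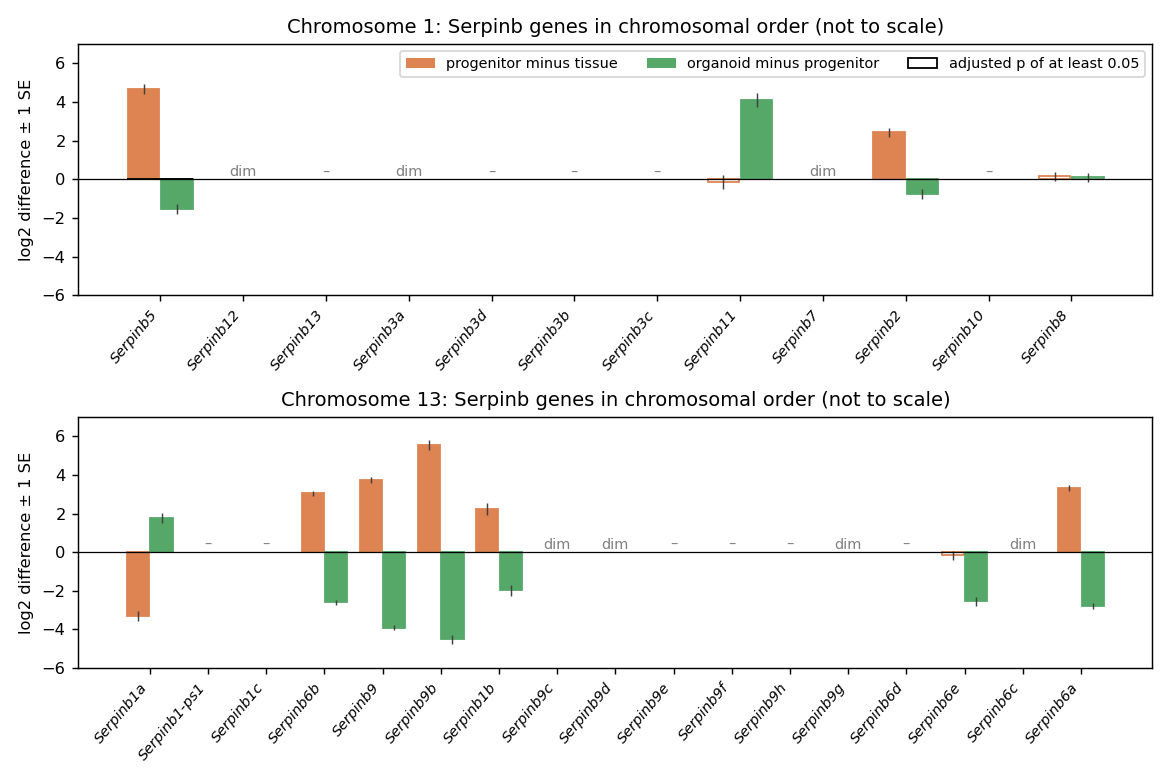
Log2 differences with bars of 1 SE for the Serpinb genes of chromosome 1 (top) and chromosome 13 (bottom), in RefSeq order along the chromosome and not to scale. Orange bars are progenitor cells minus tissue and green bars organoids minus progenitor cells, open bars have an adjusted p of at least 0.05, members marked dim were not tested, and a dash marks genes without a probe set of their own. Serpinb6b, Serpinb9, Serpinb9b and Serpinb1b, side by side on chromosome 13, rise by 2.23 to 5.55 and then fall.

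Serpinf1 and Serpinh1 are not protease inhibitors. Serpinf1 encodes pigment epithelium-derived factor, a secreted protein that restrains vessel growth, and was the only tested member to rise at both steps. It read 6.30, 6.42, 6.49 and 6.51 in tissue, 10.02, 10.04, 10.53 and 10.72 on progenitor arrays and 10.45, 10.11, 11.43 and 11.02 in organoids (1416168_at). Cultures were well above tissue and overlapped each other. Serpinf1 rose by 3.68 (SE 0.14, limma adjusted p = 2.52e-10), or 12.8-fold. Its second rise, 0.42 (adjusted p = 0.0154), did not pass without medulla progenitor replicate 1 (0.37), without cortex organoid replicate 1 (0.33), under 75th percentile scaling (0.28) or with the mean of all probe sets (0.16), and its other probe set gave −0.10.

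Serpinh1 encodes HSP47, the chaperone of the endoplasmic reticulum that binds folding procollagen. It read 10.86, 11.03, 11.45 and 10.89 in tissue, 12.22, 12.32, 12.51 and 12.43 on progenitor arrays and 11.32, 11.39, 12.62 and 12.10 in organoids (1450843_a_at). Progenitor arrays were above all tissue arrays, and organoids overlapped both. It rose by 1.30 (SE 0.14, adjusted p = 2.87e-06 in limma) and fell by 0.51 (adjusted p = 0.00500), remaining 0.79 above tissue (adjusted p = 1.78e-04). Its second probe set, 1456733_x_at, gave 0.67, then −2.47, and −1.80 between organoids and tissue, so the direction against tissue differs between the probe sets.

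The collagen machinery that Serpinh1 serves was examined as a list of 25 genes. Of 23 tested, 13 rose and 5 fell from tissue to progenitor cells (median 1.01), and 3 rose and 17 fell in organoids (median −1.18). Among all genes 36.8% rose and 35.9% fell at the first step, and 28.1% rose and 44.3% fell at the second. Col3a1, a fibrillar collagen of connective tissue, rose by 1.95 (adjusted p = 7.43e-06 in limma) and fell by 4.12, and Col1a1 rose by 3.28 and again by 1.37. The mean of 10 fibroblast markers (10 of 10 measured) was 8.01 to 9.06 in tissue, 9.06 to 9.31 in progenitor cells, 5.67 to 6.70 in cortex organoids and 8.74 to 8.91 in medulla organoids. The collagens Col1a1, Col1a2, Col3a1 and Col6a3 are in both lists. Lum was below the array median in all cultures, and Col6a3, Pdgfra and Pdgfrb were so in cortex organoids. The progenitor cells were grown on feeder fibroblasts, and the labels do not say how these were removed before lysis. The part of feeder cells in the Serpinf1 and Serpinh1 values was not tested.

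Cortex and medulla did not differ detectably in any member in tissue or progenitor cells. By limma 0 of 24 passed in tissue, where 0.330% of all genes were higher and 0.00767% lower in medulla, and 2 of 24 (Serpina10 and Serpinb9) had an unadjusted p under 0.05. In progenitor cells also 0 of 24 passed by limma, against 0.276% and 0.0384% of all genes. The share of all genes with an unadjusted p under 0.05 was not computed, so no excess can be read from such member counts. In progenitor cells 7 members had an unadjusted p under 0.05. Serpina10 had the lowest adjusted p of these, at 1.08 above cortex (SE 0.27, adjusted p = 0.207), and it passed without medulla organoid replicate 1 or 2, which enter only through the shared spread (adjusted p = 0.0396 and 0.0377). Serpinf1 passed when only the progenitor arrays were fitted (0.59, adjusted p = 0.0489). In tissue Serpinb9 passed without medulla tissue replicate 2 (1.07, adjusted p = 0.00444).

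In organoids 5 of 24 tested members were higher and 1 was lower in medulla, which is 20.8% and 4.17%, against 7.94% and 10.0% of all genes. The median difference was 0.34 among members and 0.00 over all genes. Serpina3n differed most: its cortex organoid arrays read 6.22 and 7.20 and its medulla organoid arrays 9.70 and 10.59. The difference was 3.25 (SE 0.44, limma adjusted p = 7.23e-04), or 9.52-fold. Serpinb9b was 1.77 higher (SE 0.34, adjusted p = 0.00517 in limma), Serpinb6b 1.72 (SE 0.16, adjusted p = 1.05e-04), Serpinh1 0.997 (SE 0.19, adjusted p = 0.00514) and Serpinf1 0.94 (SE 0.19, adjusted p = 0.00677). The cortex and medulla arrays of these genes did not overlap. Serpinb11 went the other way, with 10.20 and 10.13 in cortex organoids and 9.08 and 7.28 in medulla organoids, a difference of −1.91 (SE 0.49, adjusted p = 0.0195 in limma).

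Several of these calls rested on single arrays or on the shared spread. That of Serpinb11 ended without cortex organoid replicate 1 (−1.88) or 2 (−1.95), and without medulla organoid replicate 2 the difference was −1.06 (adjusted p = 0.0600). It also ended with an offset of 1 signal unit (adjusted p = 0.0565). The Serpinf1 call ended without cortex organoid replicate 2 (0.77, adjusted p = 0.0667), and that of Serpinh1 with the mean of its probe sets (0.64, adjusted p = 0.0659). Fitted on the 4 organoid arrays alone, Serpinb11, Serpinb9b, Serpinf1 and Serpinh1 did not pass (adjusted p = 0.127, 0.118, 0.0941 and 0.0687), which left 2 calls, Serpina3n and Serpinb6b. The next members in size, Serping1 (1.58, adjusted p = 0.0562) and Serpina3i (1.48, adjusted p = 0.0967), did not pass in limma. Serping1 passed without medulla organoid replicate 1 (2.23, adjusted p = 0.00994), and Serpina1f (1.74) and Serpinb5 (1.43) without medulla organoid replicate 2. Serpinb6a, at −0.53, passed without medulla organoid replicate 1. Other probe sets gave −1.41 for Serpinb5 (adjusted p = 0.0274) against 0.87 (adjusted p = 0.126) for the brighter one, 2.24 for Serpini1 (adjusted p = 0.0148) against 0.53, and 0.28 for Serpinh1 against 0.997.

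The fibroblast marker mean differed between these organoids in the same direction, from at most 6.70 in cortex to at least 8.74 in medulla. The leukocyte mean was also higher in medulla organoids (6.84 to 6.88 against 5.74 to 6.13 in cortex organoids, with Adgre1, Lyz2 and Itgam below the array median in both), as was the endothelial mean (3.80 to 4.09 against 3.10 to 3.13, with 6 of 7 markers below the median in both). Of the collagen list 13 of 23 were higher and 0 lower in medulla organoids by limma (median 1.37), with Col6a2 at 3.45 and Col3a1 at 2.38. Among all genes 7.94% were higher and 10.0% lower. The part of these markers in the Serpin differences was not tested.

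**Figure D4:**
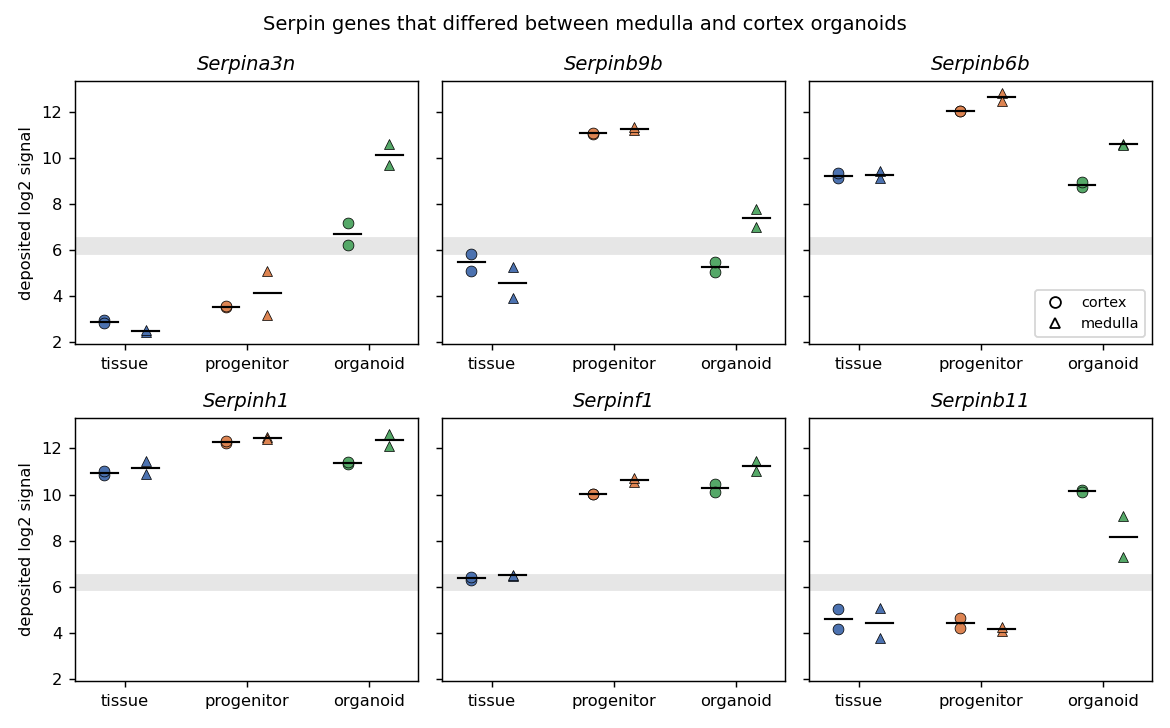
Deposited log2 signal (vertical axis) of the 6 members that differed between medulla and cortex organoids, by stage, with cortex as circles and medulla as triangles. Each group has 2 arrays and a line at their mean, and the grey band is the range of array medians, 5.85 to 6.53. Serpina3n reaches 9.70 and 10.59 in medulla organoids against 6.22 and 7.20 in cortex organoids, and only Serpinb11 is lower in medulla.

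Whether the region difference itself changed between stages was tested as a difference of differences. From tissue to progenitor cells it changed in 0 of 24 by limma (background 0.161% up and 0.123% down). Of the 24, it reached an unadjusted p under 0.05 in 1, Serpinb6b (share over all genes not computed). Without medulla tissue replicate 2 it changed for Serpinb9 (−0.99, adjusted p = 0.0360). From progenitor cells to organoids 2 of 24 members passed, both upward, where 1.63% of all genes passed upward and 2.48% downward. The medulla excess of Serpina3n grew by 2.88 (SE 0.62, limma adjusted p = 0.0271) and that of Serpinb6b by 1.11 (SE 0.23, adjusted p = 0.0250). With 1 array left out at a time, the Serpina3n change ran from 2.37 to 3.39 and that of Serpinb6b from 0.94 to 1.29. Without either cortex progenitor array, medulla progenitor replicate 2 or cortex organoid replicate 1, none passed. Serpinb9b had 1.57 (adjusted p = 0.0956) and Serpinb11 −1.78 (adjusted p = 0.174), which reached −2.63 (adjusted p = 0.00939) without medulla organoid replicate 1.

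The proteases and partners of the family were followed as lists. Beside each list here and below, 36.8% of all genes rose and 35.9% fell from tissue to progenitor cells. From there to organoids 28.1% of all genes rose and 44.3% fell. Of 25 genes of plasminogen activation and coagulation 17 were tested, of which 8 rose and 8 fell from tissue to progenitor cells, and 3 rose and 8 fell in organoids (medians −0.10 and −0.60, beside 0.03 and −0.29 over all genes). Urokinase (Plau), the target of Serpinb2, read 7.997, 8.04, 8.87 and 8.04 in tissue, 8.05, 8.09, 7.93 and 8.46 on progenitor arrays and 12.73, 12.55, 12.43 and 12.76 in organoids. It did not differ between the first stages (−0.10, adjusted p = 0.621 in limma) and rose by 4.42 in organoids (SE 0.18, adjusted p = 1.63e-09). Its receptor Plaur rose by 3.50 in progenitor cells (adjusted p = 5.47e-10 in limma), and tissue plasminogen activator (Plat) by 0.99 (adjusted p = 6.60e-05). Tissue factor (F3), the trigger of coagulation, rose by 4.32 and then fell by 2.12.

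Of 27 listed proteases, not all of them established targets of serpins, 19 were tested. Of these, 3 rose and 12 fell from tissue to progenitor cells, while 10 rose and 5 fell in organoids (medians −0.94 and 0.37). Tissue kallikrein (Klk1) fell by 10.83 (SE 0.30, adjusted p = 2.60e-11 in limma), and rose by 4.43 in organoids, whereas the epithelial serine protease Prss22 rose by 7.63 and fell by 2.98. Of 28 other protease inhibitors 23 were tested: 8 rose and 10 fell, then 9 rose and 10 fell (medians 0.00 and −0.35). Spink1, a trypsin inhibitor, fell by 9.38, and Timp1, an inhibitor of matrix metalloproteinases, rose by 6.16 (adjusted p = 3.56e-09 in limma). Of 6 genes of hormone carriage and the angiotensin system, 5 were tested and all 5 fell in progenitor cells (median −5.498), including angiotensinogen (Agt), a serpin by fold although not by name, by 5.85 (SE 0.20, adjusted p = 1.23e-10 in limma). Agt then rose by 1.52 in organoids and stayed 4.34 below tissue. Of 7 genes of serpin receptors and uptake 6 were tested: 1 rose and 5 fell, then 3 rose and 1 fell (medians −1.41 and 0.48). Megalin (Lrp2), an endocytic receptor of the proximal tubule, fell by 8.58 (adjusted p = 1.18e-10 in limma) and Vldlr by 1.89.

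The remaining 16 members stayed under the brightness filter and were not tested. They are Serpina3a, Serpina4-ps1, Serpina5, Serpina6, Serpina7, Serpina9, Serpina11, Serpina12, Serpinb3a, Serpinb6c, Serpinb7, Serpinb9c, Serpinb9d, Serpinb9g, Serpinb12 and Serpini2. Their signals ran from −5.98 to 7.89, and only Serpina6, the carrier of corticosteroids, exceeded an array median, on 1 array (7.89, medulla organoid replicate 2). A member under the median on this measure cannot be called absent.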

How the data were processed

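Biotin-labelled cRNA from the 12 RNA samples was hybridised to Affymetrix mouse arrays of the 3′ type, per the labels' protocols. The authors deposited a log2 signal for each probe set, made with MAS5 per the submitters' processing notes (version not stated there). The trimmed mean of the unlogged signal (2% off each end) was 500 on every array. Of 45101 probe sets, 64 were controls, 34945 named 1 gene symbol, 932 several and 9224 none or a control, by the platform annotation; 34754 matched a RefSeq gene ID. Probe sets with several symbols, 3 of them naming several Serpin genes, were not used.

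The signals were unlogged, 15.1473 units (the 25th percentile) were added and log2 was taken. The probe set with the highest mean stood for a gene. R 4.3.3 and limma 3.58.1 fitted 6 group means to the 12 arrays with a mean-variance trend (6 residual and a median of 5.67 prior degrees of freedom), two-sided, with Benjamini-Hochberg adjustment over 13037 genes. The fit was tested on simulated data.

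The members, the gene lists, the markers and the tests were chosen with earlier results of these data known. Array-by-array values are given for the 19 tested members with a stage difference of at least 2 log2 units that passed, or with any region call. Other genes were named only from the lists, at most 6 per list by size of change, plus Plau, Plat, Plaur and Agt. Alternatives were other scalings, offsets, filters, probe set rules, variance models, the fitted samples, a replicate block and leaving out each array. Promoters came from RefSeq (GRCm38.p6), and were found for 34 of the 40 members.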

Additional observations from a re-analysis of the deposited data

Results flagged for a closer look

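The medulla excess of Serpina3n was larger in organoids than in progenitor cells by 2.88 (SE 0.62, limma adjusted p = 0.0271), which marks it as a member whose region difference itself differed between stages. Medulla minus cortex was 3.25 in organoids. In medulla progenitor cells the arrays read 5.10 and 3.21, and without either cortex progenitor array, medulla progenitor replicate 2 or cortex organoid replicate 1 the adjusted p lay between 0.0971 and 0.120.

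Serpinb6b met the same criterion, with a region difference 1.11 larger in organoids than in progenitor cells (SE 0.23, limma adjusted p = 0.0250). Its cortex organoid arrays read 8.74 and 8.93 and its medulla organoid arrays 10.61 and 10.56. Without either cortex progenitor array, medulla progenitor replicate 2 or either cortex organoid array the difference was 0.94 to 1.21, with an adjusted p between 0.0590 and 0.122.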

How the results depend on the processing

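Leaving out 1 array at a time gave 17 to 19 members that passed from tissue to progenitor cells, 18 to 20 from progenitor cells to organoids, 20 to 21 between organoids and tissue, and 0 to 1, 0 to 1 and 4 to 9 between regions in tissue, progenitor cells and organoids. For the change of the region difference it gave 0 to 1 from tissue to progenitor cells and 0 to 5 from there to organoids. The number of calls over all genes also moved when single arrays were left out, so these ranges are no result about the family. Of the members' 65 calls, 65 were kept with an offset of the median signal, without the brightness filter and with the replicate block. Quantile normalization kept 63 and 75th percentile scaling 61. An offset of 1 signal unit kept 62, a fit without a variance trend 64, and fitting the compared groups alone 60. Where fewer members could be compared, 53 of 53 were kept with a filter at the 60th percentile and 60 of 63 with the mean of all probe sets. Fitted alone, the counts were 1 for the progenitor region difference, 2 for the organoid one and 1 for its change from progenitor cells to organoids. That last count was also 1 with an offset of 1 signal unit and 1 without a variance trend. Without the brightness filter 26 members passed in both organoid comparisons, which includes dim members.

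The mean of all probe sets in place of the brightest turned the sign of Serpinb8 between progenitor cells and tissue (−0.69) and between organoids and tissue (−0.79), and of Serpinh1 (−0.51), Anxa2 (−0.36) and Sort1 (2.36) between organoids and tissue. It also turned Itih5 (0.26) and Nr3c1 (0.0943) from progenitor cells to organoids. The probe sets of these genes differ, and the cause was not tested.

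With the replicate block 18, 19 and 20 members passed in the stage comparisons, 0, 0 and 7 in the region comparisons, and 0 and 2 in the changes of the region difference. Serping1 in organoids was added (1.58, limma adjusted p = 0.0402). Equal replicate numbers showed no pairing in the values: over 15 pairs of groups the correlation of deviations was −0.14 to 0.06 and above 0.1 in 0. Such values cannot tell whether equal numbers share an animal or a culture. No detection call entered the analysis, so a signal under the array median does not show absence.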

Other observations

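Of the 11 members that were higher in organoids than in tissue, 8 had the larger difference in medulla and 3 (Serpina10, Serpinb11 and Serpinb6a) in cortex. The same split was not computed over all genes, so it is a description and no result about the family. It also restates in part the organoid region differences given above. The organoid minus tissue difference of Serpinb9b was −0.14 in cortex and 2.20 in medulla, and that of Serpinb6b was −0.39 and 1.29. For Serpina3n it was 2.41 and 5.78, for Serpinb11 4.87 and 3.03, for Serpina10 0.89 and 0.39, and for Serpinb6a 0.76 and 0.30. Among the 9 members lower in organoids, the fall was larger in cortex for Serpinb1a (−2.13 and −0.95), Serping1 (−4.26 and −3.20) and Serpini1 (−2.05 and −0.97). By less, it was also larger in cortex for Serpinf2 (−6.32 and −5.62), Serpina1f (−8.69 and −8.20), Serpinb6e (−2.78 and −2.67) and Serpinc1 (−1.01 and −0.88). In medulla it was larger for Serpina1b (−1.72 and −2.22) and Serpina1c (−4.57 and −4.86). Organoid signals of Serpina1f and Serpina1c lay near or below the array medians. Whether these regional values differ between organoids and tissue was not tested.

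Among the 16 dim members, 7 passed from progenitor cells to organoids and 6 between organoids and tissue when no brightness filter was used. In the same fit 27.6% and 37.9% of the 5156 genes under the filter passed in these comparisons, and 58.7% and 67.2% of all 18193 genes. The largest of these differences were those of Serpina4-ps1, −1.34 between organoids and tissue (limma adjusted p = 0.00219), and of Serpina3a, −1.24 from progenitor cells to organoids (adjusted p = 0.00277). Serpina11 was higher in organoids, by 0.83 over progenitor cells (limma adjusted p = 0.00658) and by 0.81 over tissue. These values lie near or below the array medians.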
